A study of Mus musculus with 2 samples.

Results

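Lce1c, Lce1d, Lce3a, Lce3b, Lce3c and Lce6a are 6 of the 19465 genes measured by spatial transcriptomics in imiquimod (IMQ)-treated mouse skin. They were taken by symbol from the late cornified envelope (Lce) family, of which 13 genes were measured, and all 6 had UMIs in both sections. A UMI is the tag that marks 1 captured molecule. They were chosen on their levels in the epidermis of these 2 sections (the UMIs per gene and their ratio between the sections), so those levels and ratios are given as a description and support nothing. IMQ, an agonist of Toll-like receptor 7, was used to induce psoriasis-like inflammation, and the study asked how the skin responds when keratinocytes lack S1PR2, a receptor for sphingosine 1-phosphate. One section came from an IMQ-treated S1pr2 f/f mouse and 1 from an IMQ-treated S1pr2 f/f K14-Cre mouse, so each group had 1 sample. Both mice carried floxed S1pr2 alleles, were 8 weeks old, had their back skin depilated 1 day earlier and then had 62.5 mg of cream with 5% IMQ put on it every day for 7 days. The keratin 14 promoter drives Cre in keratinocytes, so deletion was aimed at the epidermis, and there was no section of untreated skin. With 1 section per genotype, a difference between the sections cannot be told apart from a difference between mice, tissue pieces or libraries, and no test between the groups was possible.

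The cornified envelope is the cross-linked protein shell that replaces the plasma membrane of keratinocytes in the stratum corneum. Lce genes lie in the epidermal differentiation complex, a cluster of genes switched on late in keratinocyte differentiation, and they encode small proteins that transglutaminases attach to the envelope. Lce1 genes are known as constitutive genes of the uppermost living layers, whereas Lce3 genes are known for being low in healthy skin and induced by barrier damage and in psoriasis. Lce6a is a more distant family member that has been studied less.

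On the mouse genome GRCm38.p6, all 6 genes lay on chromosome 3, with Lce6a, Lce1c and Lce1d between positions 92604821 and 92687210 and Lce3a, Lce3b and Lce3c between 92925287 and 92945730. The annotated genes were short, from 944 bases for Lce3a to 1712 for Lce1d, except Lce6a, which spanned 16840. The 150 bases before each annotated start (RefSeq, GRCm38.p6) are printed here 5′ to 3′ because they show what the promoters of the Lce1 and Lce3 genes shared and where Lce6a differed. Capitals mark ATAAAA, letters that resemble the TATA box and that were chosen after the sequences had been seen.
Lce1c (chr3:92679097-92679246, plus strand): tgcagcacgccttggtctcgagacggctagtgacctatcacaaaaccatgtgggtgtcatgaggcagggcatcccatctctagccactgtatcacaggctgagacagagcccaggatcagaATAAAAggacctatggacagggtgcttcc
Lce1d (chr3:92687211-92687360, minus strand): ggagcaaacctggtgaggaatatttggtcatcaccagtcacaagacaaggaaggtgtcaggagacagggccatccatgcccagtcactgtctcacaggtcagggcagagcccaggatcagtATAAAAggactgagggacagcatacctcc
Lce6a (chr3:92621661-92621810, minus strand): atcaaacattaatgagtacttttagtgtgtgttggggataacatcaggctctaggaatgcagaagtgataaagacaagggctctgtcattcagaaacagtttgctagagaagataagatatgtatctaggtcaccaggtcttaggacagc
Lce3a (chr3:92926231-92926380, minus strand): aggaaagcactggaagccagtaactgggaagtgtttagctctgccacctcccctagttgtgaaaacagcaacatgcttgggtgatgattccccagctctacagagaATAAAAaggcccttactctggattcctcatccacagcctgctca
Lce3b (chr3:92932829-92932978, plus strand): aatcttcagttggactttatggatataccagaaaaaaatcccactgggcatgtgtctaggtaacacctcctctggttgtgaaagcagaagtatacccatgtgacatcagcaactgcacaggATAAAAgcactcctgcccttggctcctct
Lce3c (chr3:92944336-92944485, plus strand): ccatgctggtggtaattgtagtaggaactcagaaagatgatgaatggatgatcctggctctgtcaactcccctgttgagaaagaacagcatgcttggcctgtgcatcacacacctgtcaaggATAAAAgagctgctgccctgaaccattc
ATAAAA was found in 5 of the 6 promoters, starting 29 bases before the start in Lce1c, Lce1d and Lce3b, 28 in Lce3c and 44 in Lce3a, and these letters were not in the window of Lce6a. It was also found in 6 of the 6 other measured Lce genes with an entry, whereas 10.8% of all 27025 promoters held it in their 250 upstream bases on the gene strand. The Lce1c and Lce1d sequences were the most alike, with 67.5% identical columns in a pairwise alignment. Pairs of Lce3 sequences were 50.3 to 55.5% identical, and Lce1 with Lce3 sequences 39.5 to 48.4%. The AP-1 letters TGANTCA (both strands) were in 0 of the 6 promoters and in 6.87% of all promoters, and the KLF letters CACCC (both strands) were in those of Lce1c and Lce3a and in 51.3% of all. A match is a run of letters and was not tested as a binding site, and the capitals set the Lce1 and Lce3 genes apart from Lce6a but not from each other.

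The S1pr2 f/f section held 5315351 UMIs in 1282 spots over tissue and the S1pr2 f/f K14-Cre section 2845826 in 981, with medians of 3542.5 and 2319 UMIs per spot. A spot covers several cells, so fewer cells of a type and less RNA per cell cannot be told apart. In epidermis-like spots, S1pr2 itself had 17 UMIs in the S1pr2 f/f section (15.9 CPM, counts per 1000000 UMIs, with a 95% interval of 9.26 to 25.5) and 14 in the other (15.7 CPM, 8.57 to 26.3). At these counts the deletion was not detectable, and the position of the probe relative to the floxed part is not given in the sources used here. The genotype is therefore the label's alone, and the second section is called the section labelled K14-Cre below. A gene for a chemosensory receptor, which skin should hardly express, had on average 1.2 UMIs in the epidermis-like spots of the S1pr2 f/f section and 7.87 in those of the section labelled K14-Cre. The S1pr2 count was above 99.9% of these receptor genes in the S1pr2 f/f section and above 85.4% in the other. Its near-equal CPM values therefore do not show equal expression. Epidermis-like spots were the clusters with at least 50% of 15 keratinocyte markers at 2-fold or more over the other spots. A cluster took the name of another tissue where a larger share of that tissue's markers was enriched. The clustering left out all Lce genes and a list of genes that the study names. Epidermis-like spots numbered 208 in the S1pr2 f/f section, in a cluster led by Sprr2i (113 spots) and a cluster led by Kctd4 and Hrnr (95 spots). The section labelled K14-Cre had 286, in clusters led by Sprr2i (75 spots), by Alox8, Flg, Krt10 and Lor (34 spots) and by Sult2a6 and Klf14 (177 spots).

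All 6 genes were lower in the epidermis-like spots of the section labelled K14-Cre, and the Lce1 genes and Lce6a were lower by more than the Lce3 genes. Lce1c, a constitutive envelope gene, was 614 CPM (568 to 662) in the S1pr2 f/f section and 42.6 CPM (30.1 to 58.4) in the section labelled K14-Cre. Lce1d, its near copy, was 598 CPM (552 to 646) and 49.3 CPM (35.8 to 66.2). Lce6a was 272 CPM (242 to 305) and 21.3 CPM (12.8 to 33.2). For each of these 3 genes the intervals of the sections lay far apart, and the Lce6a count in the section labelled K14-Cre was 19 UMIs, above 95.9% of the receptor genes there. Lce3a, which had more UMIs than Lce3b and Lce3c, was 1630 CPM (1554 to 1708) and 301 CPM (266 to 340). Lce3b was 1086 CPM (1025 to 1150) and 192 CPM (164 to 222), and Lce3c was 1072 CPM (1011 to 1136) and 255 CPM (223 to 291). The intervals are exact Poisson, cover counting error only and leave out the spread between mice. Levels of different genes are not comparable, since UMIs per transcript depend on the probes, and probes to Lce genes of near-identical sequence may share signal.

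Summed over Lce1c and Lce1d, the section labelled K14-Cre was lower by a log2 ratio of -3.72 (-4.06 to -3.40), from 1295 UMIs against 82. Lce6a had a log2 ratio of -3.68 (-4.43 to -3.01). Lce3a, Lce3b and Lce3c summed had a log2 ratio of -2.34 (-2.46 to -2.22), from 4049 UMIs against 668. Among 11053 genes with at least 20 UMIs over both regions, 7.42% were lower by 2-fold or more in the section labelled K14-Cre and 41.1% were higher, with a median log2 ratio of 0.70, and the 6 genes, chosen for being low, were all among the lower ones. Only 5 genes had a lower log2 ratio than Lce1c, 7 than Lce6a and 10 than Lce1d, whereas 70, 79 and 149 were lower than Lce3b, Lce3a and Lce3c (pseudocount of 0.5 UMIs). The plot of the levels of each gene shows the gap between sections for every Lce gene with a sufficient count.

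**Figure D1:**
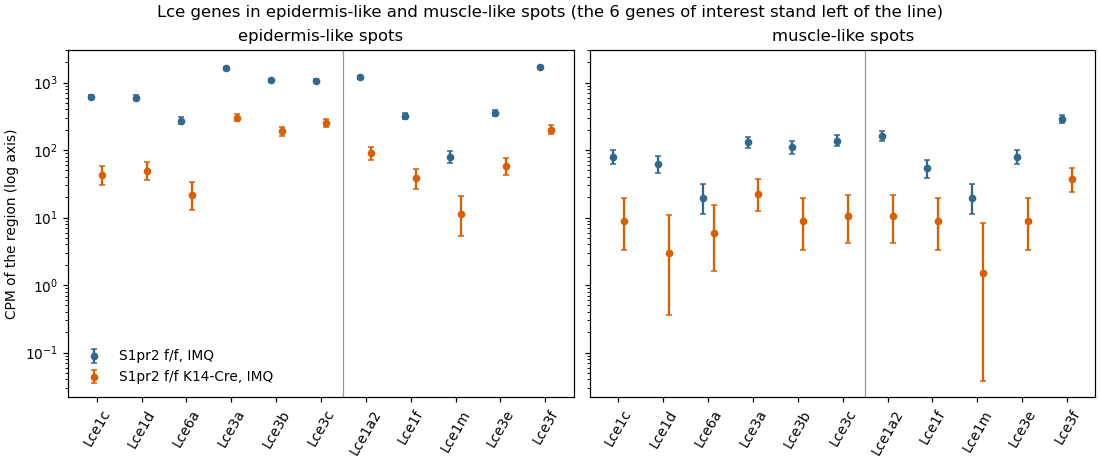
Levels of 11 Lce genes in CPM (log axis) with 95% exact Poisson intervals in the epidermis-like spots (left) and the muscle-like spots (right) of the S1pr2 f/f section (blue) and the section labelled K14-Cre (orange). In epidermis-like spots each gene was lower in the section labelled K14-Cre, by a wider gap for Lce1c, Lce1d and Lce6a (log2 ratios of -3.85, -3.60 and -3.68) than for Lce3a, Lce3b and Lce3c (-2.44, -2.50 and -2.07).

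The composition of the regions moved with these differences. The 15 keratinocyte markers, all detected in both sections, made up 97280 CPM of the epidermis-like spots of the S1pr2 f/f section and 40269 CPM of those of the section labelled K14-Cre. Markers of other tissue were 3084 against 9416 CPM for dermis (9 genes), 681 against 2686 CPM for muscle (7 genes) and 140 against 669 CPM for fat (7 genes, 2 of them at 0 UMIs in the S1pr2 f/f section), and 294 against 416 CPM for immune cells (7 genes). Their part in the result was not tested. When only the clusters led by envelope genes were kept (the Sprr2i-led and the Flg- and Lor-led, 109 spots), keratinocyte markers were 55926 CPM and dermis markers 4047 CPM in the section labelled K14-Cre. The S1pr2 f/f section kept all its 208 epidermis-like spots, so only the section labelled K14-Cre lost spots. The cluster it lost, led by Sult2a6 and Klf14 (177 spots), held 59.9 CPM of the Lce1 genes and 216 CPM of the Lce3 genes. The log2 ratios were then -2.99 (-3.44 to -2.57) for Lce1c and Lce1d and -3.07 (-4.15 to -2.17) for Lce6a. For the Lce3 genes the log2 ratio was -1.11 (-1.24 to -0.98). Each difference was thus smaller, with spots left out in 1 section only. In that comparison 15.2% of 7573 genes were lower by 2-fold or more.

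Because the depth and the makeup of the regions differed, the Lce3 UMIs were also set against the Lce1 UMIs of the same spots, a ratio that does not depend on the total UMIs of a region. It can be compared between places but its own value has no meaning, since it depends on the probes. The S1pr2 f/f epidermis held 3.13 Lce3 UMIs per Lce1 UMI (2.94 to 3.33) and that of the section labelled K14-Cre 8.15 (6.47 to 10.4), which is 2.61 times as many (2.05 to 3.35). In the clusters led by envelope genes alone it was 11.5 (8.55 to 15.9) in the section labelled K14-Cre, or 3.69 times the S1pr2 f/f value (2.71 to 5.11). Against Lce6a in place of Lce1, the Lce3 genes gave 13.9 and 35.2 UMIs per UMI, 2.53 times as many (1.57 to 4.29). Lce6a per Lce1 UMI was 0.225 (0.197 to 0.255) and 0.232 (0.133 to 0.385), a ratio between the sections of 1.03 (0.581 to 1.75), so a difference between Lce6a and Lce1 was not detectable in the epidermis-like spots. Over some other sets of spots Lce6a per Lce1 was higher in the section labelled K14-Cre. It was 1.61 times as high in the 2 uppermost spots of each array column (1.01 to 2.49) and 1.5 times over all spots (1.00 to 2.20). Outside the epidermis-like spots it was 2.65 times as high (1.41 to 4.85), on 20 Lce6a UMIs in 10 spots, with up to 7 in a spot. The Lce1 UMIs there were 33, where 2 receptor genes had 18.3 on average, and this background was not taken off. No difference was detectable in the clusters led by envelope genes (0.947, 0.422 to 1.93) or in spots ranked by keratinocyte markers (1.09, 0.612 to 1.86). The same held at Leiden resolution 0.5 (1.03, 0.475 to 2.05) and in muscle-like spots (3.6, 0.708 to 15.3). The contrast of the Lce3 with the Lce1 members is made of the ratios on which the 6 genes were chosen. It is therefore a description and supports nothing. Over all measured Lce3 and Lce1 genes, Lce3 per Lce1 was 2.01 times as high in the section labelled K14-Cre (1.72 to 2.36). The other Lce1 and Lce3 genes of the files alone showed less of this contrast. Lce3e and Lce3f per Lce1a2, Lce1b, Lce1f, Lce1g and Lce1m UMI were 1.29 in the S1pr2 f/f section and 1.74 in the other, 1.35 times as many (1.08 to 1.70), and Lce3f was lower (log2 ratio of -3.09) by as much as Lce1f (-3.08).

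Per UMI of other epidermal genes, Lce1c and Lce1d were lower in the section labelled K14-Cre for each of 5 denominators. The direction for Lce3a, Lce3b and Lce3c depended on the denominator. Per 1000 UMIs of Krt1 and Krt10, the keratins of the spinous layer, the Lce1 genes were 38.3 in the S1pr2 f/f section and 20.9 in the section labelled K14-Cre (log2 ratio of -0.88, -1.22 to -0.55). Lce3a, Lce3b and Lce3c were 120 and 170 (0.50, 0.38 to 0.62), that is higher in the section labelled K14-Cre. Over all epidermis-like spots this was not seen for Lce3e and Lce3f. Their summed log2 ratio per UMI of all genes was -2.99 (-3.20 to -2.80), against -2.84 for Krt1 and Krt10. In other sets of spots it was above that of Krt1 and Krt10. It was -1.85 (-2.08 to -1.62) against -2.27 in the clusters led by envelope genes. In spots ranked by keratinocyte markers it was -2.72 (-2.92 to -2.52) against -3.06. In the 2 uppermost spots it was -2.58 (-2.77 to -2.39) against -2.65, within its interval. Over the epidermis-like spots, Lce6a was 8.62 and 4.84 per 1000 UMIs of Krt1 and Krt10 (-0.83, -1.59 to -0.16). Its other log2 ratios ran from -3.11 per UMI of Krt5 and Krt14 to -1.10 per UMI of the late envelope genes. In the 2 uppermost spots, however, Lce6a per UMI of Krt1 and Krt10 had a log2 ratio of -0.02 (-0.60 to 0.51). Per UMI of late envelope genes it was -0.40 (-0.98 to 0.13) there. In the clusters led by envelope genes it was -0.80 (-1.87 to 0.10) per UMI of Krt1 and Krt10. A lower Lce6a was not detectable by these ratios. The 31 Lce6a UMIs of the uppermost spots of the section labelled K14-Cre lay in 20 spots, with up to 7 in a spot. Its epidermis-like spots held at most 2 each, and the intervals do not allow for such clumping. Per UMI of a list of 15 measured late envelope genes, such as Flg, Lor and Hrnr, the log2 ratios were -1.15 for the Lce1 genes and 0.23 for the Lce3 genes. Per UMI of Krt5 and Krt14, the keratins of the basal layer, they were -3.15 and -1.77, per UMI of the Sprr genes, which encode small proline-rich envelope proteins, -1.99 and -0.61, and per UMI of the hyperproliferation genes, such as Krt6b, Krt16 and S100a8, -1.90 and -0.52. Lce3a, Lce3b and Lce3c were thus lower than in the S1pr2 f/f section per UMI of all genes, basal keratins, Sprr genes and hyperproliferation genes. They were higher per UMI of Krt1 and Krt10 and of late envelope genes. In the clusters led by envelope genes alone, the Lce3 value per UMI of the hyperproliferation genes was -0.0042 (-0.14 to 0.13).

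**Figure D2:**
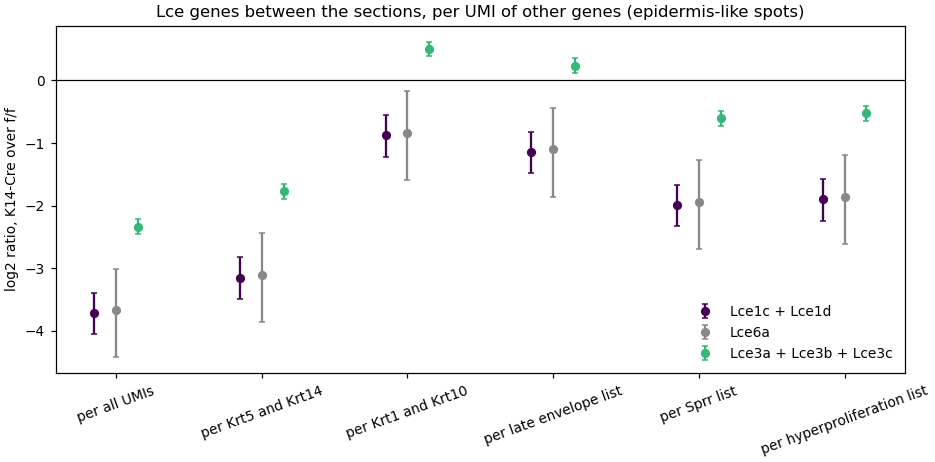
Log2 ratio of the section labelled K14-Cre over the S1pr2 f/f section in epidermis-like spots for Lce1c and Lce1d (purple), Lce6a (grey) and Lce3a, Lce3b and Lce3c (green), per UMI of all genes and of 5 other gene sets, with 95% conditional binomial intervals. The Lce3 points lie above the Lce1 points by 1.38 throughout, as they share the denominator, and are above 0 for Krt1 and Krt10 (0.50) and for the late envelope list (0.23).

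The wider set of genes for late differentiation was also lower in the section labelled K14-Cre. Of the 15 late envelope genes with at least 20 UMIs, 13 were lower by 2-fold or more and 1 was higher, with a median log2 ratio of -2.08, against the background shares of 7.42% and 41.1% and the median of 0.70 for all genes. Flg, the precursor of the filament-aggregating protein of the granular layer, had a log2 ratio of -4.48, Hrnr, a related fused S100 protein, -4.41 and Lor, a major envelope protein, -2.91. Of the 10 Sprr genes 7 were lower (median of -1.99), of the 14 hyperproliferation genes 10 were lower and 1 higher (median of -1.62), and of the 10 suprabasal genes 9 were lower (median of -1.70). The 10 basal genes had 0 lower and 2 higher, with a median of 0.51. In the clusters led by envelope genes, 15.2% of all genes were lower and the median of all genes was 0.11. There the hyperproliferation genes had 5 of 14 lower (Krt16, S100a9, Defb4, Il1f6 and Il1f8, median of -0.95). Lower were also 12 of 14 late envelope genes (median of -1.56), 6 of 10 Sprr genes (median of -1.49) and 7 of 10 suprabasal genes (median of -1.09). These clusters were kept for having Sprr2 genes, Flg, Lor or Hrnr among their top genes, which are in the late envelope and Sprr lists. Only the section labelled K14-Cre lost spots by this, so the counts of those lists depend on the choice. Over all epidermis-like spots, the Lce1 genes and Lce6a had log2 ratios between those of Lor and Hrnr, and the Lce3 genes log2 ratios between those of Krt16 (-2.06) and Lor.

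The Lce genes lay at the outer edge of both sections. In the S1pr2 f/f section, the outermost spot of each array column held 1310 CPM of Lce1c and Lce1d (1237 to 1386) and the next spot inwards 405 CPM (369 to 444). The Lce3 genes were 3819 CPM (3693 to 3948) and 1204 CPM (1142 to 1269) in the same spots. In the section labelled K14-Cre the Lce1 genes were 114 CPM (86.9 to 147) in the outermost spot and 46.2 CPM (30.5 to 67.2) in the next, and the Lce3 genes 1164 CPM (1073 to 1260) and 166 CPM (135 to 203). Lce3 per Lce1 was therefore 2.92 and 2.97 in the first and second spot of the S1pr2 f/f section, and 10.2 (7.83 to 13.6) and 3.59 (2.32 to 5.73) in the section labelled K14-Cre. The ratio differed between the sections where the epidermis was outermost, and in the second spot the intervals of the sections overlapped. In the second spot of the section labelled K14-Cre it rests on 27 Lce1 UMIs. A receptor gene had 4.89 there on average, and this background was not taken off. Part of the S1pr2 f/f section was curled, so its array columns do not run straight inwards there.

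**Figure D3:**
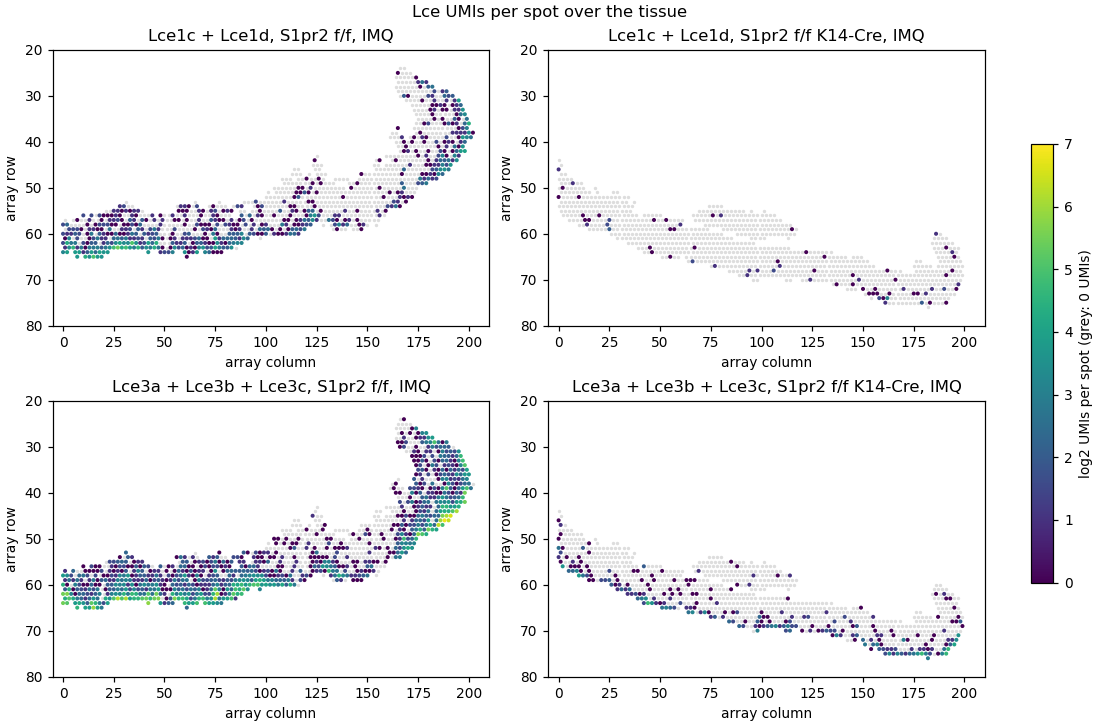
UMIs of Lce1c and Lce1d (top) and of Lce3a, Lce3b and Lce3c (bottom) in each spot over tissue, by array column and row, on a log2 colour scale with spots at 0 UMIs in grey. In the S1pr2 f/f section (left) both sets are dense along the lower and right edge with up to 42 and 113 UMIs in an epidermis-like spot, and in the section labelled K14-Cre (right) the Lce3 genes trace the lower edge with up to 27 UMIs while the Lce1 genes are scattered, with at most 9.

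**Figure D4:**
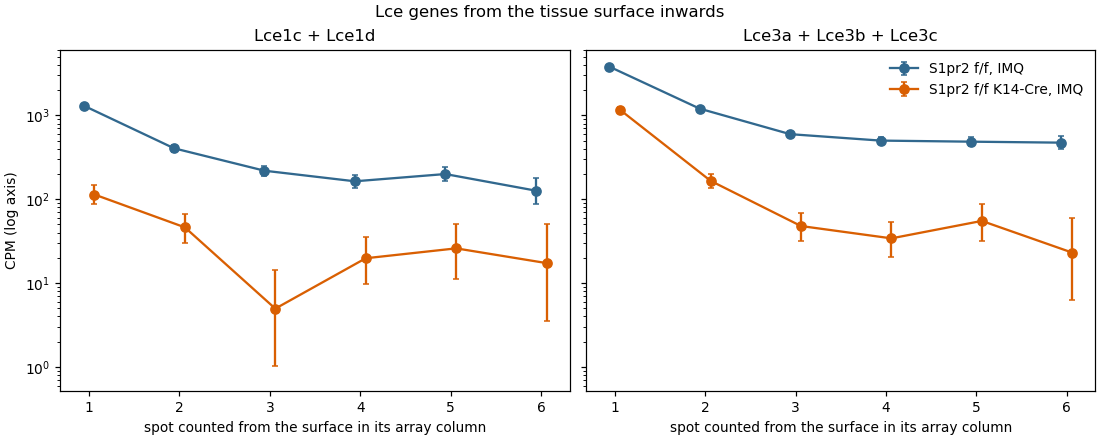
CPM (log axis) of Lce1c and Lce1d (left) and of Lce3a, Lce3b and Lce3c (right) by the order of the spot from the tissue surface in its array column, with 95% exact Poisson intervals. The surface was taken as the end of the columns with the higher mean share of keratinocyte markers. Levels are highest in the outermost spot and remain above those of the section labelled K14-Cre (orange) at each of the 6 depths plotted in the S1pr2 f/f section (blue), where the Lce1 genes are still at 200 CPM in the fifth spot.

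Outside the epidermis-like spots, Lce UMIs were also found, more so in the S1pr2 f/f section. The 15 keratinocyte markers made up 32670 CPM of these other spots in the S1pr2 f/f section and 3384 CPM in the section labelled K14-Cre. They were thus not free of keratinocyte RNA, and Lce UMIs in them cannot be called non-epidermal. Of its Lce1 UMIs, 56.9% (54.9 to 59.0) lay in epidermis-like spots, which held 20.1% of all UMIs, and of its Lce3 UMIs 61.1% (59.9 to 62.3). In the section labelled K14-Cre the shares were 71.3% (62.1 to 79.4) and 85.0% (82.3 to 87.4), with 31.4% of all UMIs in epidermis-like spots. Muscle-like spots, which should lack Lce genes, held 142 CPM of the Lce1 genes (117 to 170) and 379 CPM of the Lce3 genes (338 to 423) in the S1pr2 f/f section, and 12 CPM (5.17 to 23.6) and 41.9 CPM (27.8 to 60.6) in the section labelled K14-Cre. The 15 keratinocyte markers were 14167 and 2089 CPM in those spots. Lce3 per Lce1 was 2.66 (2.15 to 3.33) in muscle-like spots of the S1pr2 f/f section and 3.50 (1.55 to 8.89) in those of the section labelled K14-Cre, so the sections were not distinguishable there, and the ratio between them was 1.31 (0.562 to 3.43). Over all spots outside the epidermis-like ones the ratio between the sections was 1.36 (0.909 to 2.08). In the section labelled K14-Cre it rests on 33 Lce1 UMIs, where 2 receptor genes had 18.3 on average. This background was not taken off, so the ratio cannot show whether the sections were alike there.

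In single spots, the Lce3 genes were detected with and without Lce1 in one section and mostly without it in the other. At least 1 Lce1 UMI was found in 84.6% of the 208 epidermis-like spots of the S1pr2 f/f section (79.0 to 89.2, Clopper-Pearson) and in 15.4% of the 286 of the section labelled K14-Cre (11.4 to 20.1). For the Lce3 genes the shares were 96.2% (92.6 to 98.3) and 57.3% (51.4 to 63.1), and for Lce6a 49.5% (42.5 to 56.5) and 5.59% (3.23 to 8.93). Muscle-like spots had a Lce1 UMI in 43.8% and 2.52% of spots, an Lce6a UMI in 9.72% and 1.08% and a Lce3 UMI in 75% and 7.19%, at medians of 5204.5 and 2085.5 UMIs per spot against 3906 and 2395.5 in epidermis-like spots. With every spot thinned to 1000 UMIs (182 and 260 epidermis-like spots), the epidermis-like shares were 57.1% and 7.31% for Lce1, 17.6% and 3.08% for Lce6a and 86.8% and 40.4% for Lce3, and the muscle-like shares 13.2% and 0.402%, 2.08% and 0.402%, and 37.5% and 3.61%. Both gene sets were found together in 50% of thinned spots of the S1pr2 f/f section and in 5.00% of those of the section labelled K14-Cre. Lce3 without Lce1 was found in 36.8% and 35.4%, which were close, while spots with neither were 6.04% and 57.3%.

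The UMIs were unevenly spread over the spots. In the S1pr2 f/f section, the median epidermis-like spot had 4 Lce1 UMIs and the highest 42, and for Lce3 the median was 14 and the highest 113. In the section labelled K14-Cre the medians were 0 and 1 and the highest 9 and 27. Along the section, in 4 segments with equal numbers of epidermis-like spots, the Lce1 genes were 1605, 1251, 1349 and 792 CPM in the S1pr2 f/f section and 45.3, 85.3, 148 and 157 CPM in the section labelled K14-Cre. The Lce3 genes were 3372, 5246, 3615 and 3584 CPM, and 286, 1152, 1039 and 1250 CPM. Every segment of the S1pr2 f/f section was above every segment of the other for both sets. Lce3 per Lce1 was 2.10, 4.19, 2.68 and 4.53 in the S1pr2 f/f segments and 6.32, 13.5, 7.00 and 7.97 in those of the section labelled K14-Cre, so the values did not overlap. Their intervals did in part (3.87 to 10.9 and 4.41 to 11.6 at the values of 6.32 and 7.00 in the section labelled K14-Cre, 3.62 to 4.87 and 4.01 to 5.12 at those of 4.19 and 4.53 in the S1pr2 f/f section), and segments of 1 section are not replicates.

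Within the S1pr2 f/f section, Lce3 per Lce1 differed with the share of late envelope genes in a spot. The epidermis-like spots with at least 500 UMIs were split into 3 groups by the share of their UMIs in the late envelope list, which holds no Lce gene. Lce3 per Lce1 was 6.15 (5.29 to 7.18) in the group with the lowest share, 3.28 (2.94 to 3.66) in the middle and 2.14 (1.95 to 2.35) in the group with the highest. The Lce1 genes went from 504 to 1104 and 2300 CPM over these groups and the Lce3 genes from 3100 to 3619 and 4923 CPM, so the Lce1 level differed more between the groups than the Lce3 level. By the share in the basal list the ratio was 2.14, 3.04 and 5.42, with the Lce1 genes at 1698, 1072 and 840 CPM. By the share in the hyperproliferation list it was 2.38, 2.54 and 4.41, with the Lce3 genes at 2284, 3538 and 5688 CPM and the Lce1 genes at 959, 1394 and 1289 CPM.

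The section labelled K14-Cre had the same order by the basal and the hyperproliferation list and another by the late envelope list. The groups were cut within each section, so groups of the same rank cover different shares. By the late envelope list, its highest group (0.64 to 3.15% of UMIs) overlapped in share with the lowest S1pr2 f/f group (0.47 to 2.00%, ratio of 6.15, 5.29 to 7.18). The highest S1pr2 f/f group (3.72 to 11.3%) had no counterpart, so the orders were not compared over the same shares. By the late envelope list, Lce3 per Lce1 was 3.69 (2.09 to 6.87), 10.0 (5.97 to 17.9) and 8.92 (6.65 to 12.2) from the lowest to the highest group, with the lowest group at 16 Lce1 UMIs. By the basal list it was 2.77 (1.75 to 4.52), 7.61 (4.64 to 13.2) and 12 (8.61 to 17.2), with the Lce1 genes at 95.5, 63.3 and 114 CPM. Keratinocyte markers were 21352, 37394 and 58214 CPM in these groups. In the S1pr2 f/f groups by the basal list they were 96115, 98349 and 97247 CPM. The same order thus came with different keratinocyte content, whose part was not tested. By the hyperproliferation list Lce3 per Lce1 was 2.29 (1.34 to 4.02), 3.91 (2.65 to 5.92) and 17.4 (11.9 to 26.5). Keratinocyte markers were 22475, 41496 and 59860 CPM there. In the highest group the Lce3 genes were 1788 CPM and the Lce1 genes 103 CPM. In the lowest groups by the late envelope, basal and hyperproliferation lists, the Lce1 UMIs were 16, 26 and 21. A receptor gene had 3.35, 3.01 and 3.47 there on average, and this background was not taken off. Within the split by hyperproliferation genes, the ratio was highest in the group with the largest share in both sections. In the groups with the lowest share of hyperproliferation genes, the ratios of the sections had overlapping intervals, but these groups were not alike. The list took 2.04 to 7.74% of UMIs in that of the S1pr2 f/f section and 0 to 1.48% in that of the section labelled K14-Cre. Closer in share to that S1pr2 f/f group (ratio of 2.38) was the highest group of the section labelled K14-Cre, at 3.30 to 8.60% (ratio of 17.4).

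**Figure D5:**
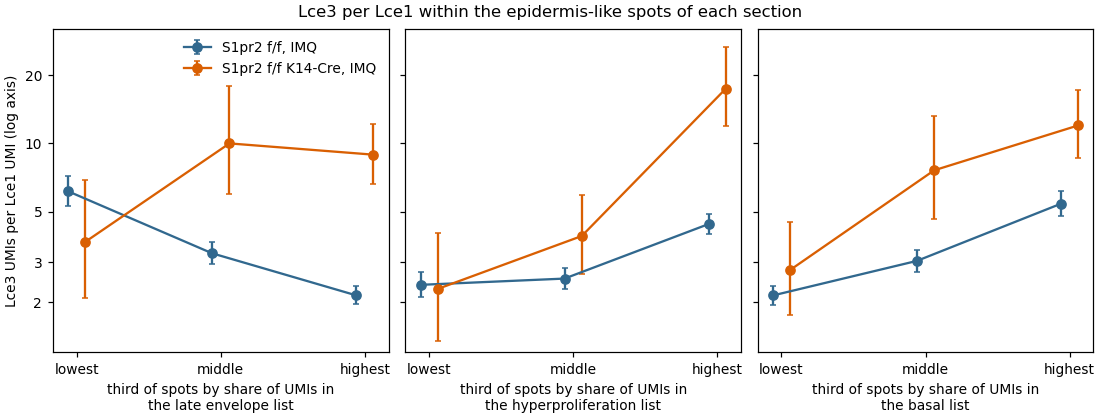
Lce3 UMIs per Lce1 UMI (log axis, with 95% Clopper-Pearson based intervals) in the epidermis-like spots of the S1pr2 f/f section (blue) and the section labelled K14-Cre (orange), split into 3 groups by the share of UMIs in the late envelope, hyperproliferation and basal lists. The groups were cut within each section, so those of the same rank do not cover the same shares. In the S1pr2 f/f section the ratio falls from 6.15 to 2.14 with late envelope genes and is 4.41 and 5.42 in the groups where hyperproliferation or basal genes take the largest share, and in the section labelled K14-Cre it reaches 17.4 with hyperproliferation genes.

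Within the S1pr2 f/f section Lce3 per Lce1 differed by the share of the lists, as given above. By cluster, it also differed within the section labelled K14-Cre. Its Sprr2i-led spots had 114 CPM of the Lce1 genes and 1792 CPM of the Lce3 genes, or 15.8 Lce3 UMIs per Lce1 UMI (10.7 to 24.0). Its spots led by Alox8, Flg, Krt10 and Lor had 304 and 1616 CPM, or 5.32 (3.23 to 9.19), and the ratio between these clusters was 2.96 (1.5 to 5.73). Its largest epidermis-like cluster, led by Sult2a6 and Klf14, had 59.9 and 216 CPM, or 3.60 (2.46 to 5.40). That ratio rests on 35 Lce1 UMIs, where a receptor gene had 5.62 on average, a background not taken off. In the S1pr2 f/f section the Sprr2i-led spots had 815 and 2665 CPM and the Hrnr-led spots 2470 and 7356 CPM, with ratios of 3.27 and 2.98 that were not distinguishable (0.911, 0.802 to 1.03). The Lce3 levels of the Flg-led and the Sprr2i-led spots of the section labelled K14-Cre had overlapping intervals (1317 to 1964 and 1628 to 1967 CPM), while the Lce1 level differed.

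Across single spots, the Lce1 genes varied most with Hrnr and Lor, and the Lce3 genes with 2310046K23Rik, Lce3f, Krt6b and Sprr genes. Over 199 epidermis-like spots of the S1pr2 f/f section with at least 500 UMIs, Pearson's r of log2(CPM + 100) with the summed Lce1 genes was highest for Hrnr (0.58), Lor (0.56), Lce1a2 (0.52), Flg (0.49) and Casp14 (0.49), the protease of cornification. For the summed Lce3 genes it was highest for 2310046K23Rik (0.58), Lce3f (0.56), Crct1 (0.53), Krt6b (0.53) and Sprr2h (0.52). Over 278 spots of the section labelled K14-Cre the same Lce3 partners had r of 0.42, 0.38, 0.33, 0.48 and 0.33, while those of Lce1 had 0.16, 0.21, 0.14, 0.26 and 0.11 at far fewer Lce1 UMIs. The Lce1 sum had r of 0.68 with the late envelope list and -0.065 with the Sprr list in the S1pr2 f/f section, and the Lce3 sum 0.23 and 0.69. In the section labelled K14-Cre r with the late envelope list was 0.20 for the Lce1 sum and 0.50 for the Lce3 sum. With the Sprr list it was 0.024 and 0.57. Only 15.4% of its epidermis-like spots held a Lce1 UMI, so the order of these values cannot be compared between the sections. Its Lce3 sum also had r of 0.36 with the basal and 0.47 with the suprabasal list. These were 0.08 and 0.06 in the S1pr2 f/f section. Lce6a had r of 0.49 with the late envelope list, 0.35 with Lce1 and 0.19 with Lce3 in the S1pr2 f/f section. The spots share 1 library and differ in depth, so these values describe the sections.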

How the data were processed

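Formalin-fixed, paraffin-embedded skin sections of 10 µm were profiled with Visium CytAssist, in which probe pairs are hybridised to transcripts and captured on spots. For each spot over tissue the deposited values are unnormalized UMI counts, made by the authors with Space Ranger 3.0.0 and mm10 according to the submitters' processing notes, and the methods name Partek Flow. The probe set is not given in the sources used here. Depth was 5315351 UMIs in 1282 spots for S1pr2 f/f and 2845826 in 981 for S1pr2 f/f K14-Cre. The sections shared 357 array positions, which are not shared cells.

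Groups were taken from the genotype given for each sample. Clustering ran in each section by itself, with scanpy 1.11.5 and igraph 0.11.9. Spots under 50 UMIs (46 and 7) were left out. It used 2000 variable genes, 20 principal components, 15 neighbours and Leiden resolution 1. Lce genes and a list of genes that the study names were left out before the variable genes were chosen. Spots are mixtures, so no doublets were called. UMIs were summed over spots and divided by all UMIs of the region (CPM). Intervals (95%) cover counting error only: CPM took the exact Poisson interval, a share the Clopper-Pearson one and a ratio a conditional binomial one. With 1 section per genotype there was no test. The ratios over all genes and their intervals were tested on simulated Poisson counts of summed regions, without clumping over spots. The clustering, the thinning and the splits of spots were not tested in that way. The members and the gene lists were chosen with earlier results of these data known. Named genes were the members, the other Lce genes, up to 5 of the most abundant genes of each list, and the 5 genes most correlated with Lce1 and with Lce3. Genes of the lists outside that rule were chosen after their values were seen. Promoters came from RefSeq (GRCm38.p6), in which 6 of 6 members and 6 of 7 other Lce genes had an entry (Lce1f had none), and Lce gene positions from the same build.

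The alternatives were Leiden resolution 0.5, as many spots as the main definition gave, ranked by keratinocyte markers, the 2 uppermost spots of each array column, all spots, spots with at least 500 UMIs, the TMM factor (edgeR 4.0.16 in R 4.3.3), the mean of CPM over spots, Krt1 and Krt10 UMIs as denominator, the mean of 1226 chemosensory receptor genes taken off, connected groups of at least 20 spots, spots thinned to 1000 UMIs, other minimums of UMIs per gene and, chosen after seeing the data, the clusters led by envelope genes.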

Additional observations from a re-analysis of the deposited data

How the results depend on the processing

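The log2 ratio of Lce1c and Lce1d (-3.72 as reported) stayed below 0 in 12 of 12 alternatives. It was -3.19 at resolution 0.5, -3.36 in the 2 uppermost spots, -4.73 with the TMM factor, -0.88 per UMI of Krt1 and Krt10 and -2.99 in the clusters led by envelope genes, and the other 7 values lay within its counting interval. Lce6a (-3.68) also stayed below 0 in 12 of 12, at -2.67 in the 2 uppermost spots, -2.82 over all spots, -4.69 with TMM, -2.99 as a mean of CPM over spots, -0.83 per UMI of Krt1 and Krt10, -4.44 with receptor genes taken off and -2.84 in thinned spots. Lce3a, Lce3b and Lce3c summed (-2.34) turned to 0.50 per UMI of Krt1 and Krt10. They were -1.26 at resolution 0.5, -2.12 in spots ranked by markers, -1.88 in the 2 uppermost spots and -2.17 over all spots. With TMM they were -3.35, in thinned spots -2.20 and in the clusters led by envelope genes -1.11. The log2 ratio of Lce3 per Lce1 (1.38) was the same by construction with TMM and per UMI of Krt1 and Krt10, where the scaling cancels, and lay between 1.23 and 1.93 in the other 10, with 1.93 at resolution 0.5 and 1.88 in the clusters led by envelope genes as the values outside its interval. Resolution 0.5 holds fewer spots in both sections and those clusters hold fewer in the section labelled K14-Cre only. In that section the 2 sets were nearly the same, with 110 and 109 spots, 47 and 47 Lce1 UMIs and 544 and 542 Lce3 UMIs. They are thus not separate alternatives there. At resolution 0.5 a cluster of 321 spots, with Sult2a6 and Klf14 among its leading genes, was named sebaceous-like. It had 12 of 15 keratinocyte markers enriched and 6 of 7 sebaceous ones. The cause of the other shifts was not tested. With a minimum of 100 UMIs, 491 of 3524 genes were lower (13.9%) and 665 higher (18.9%) by 2-fold with a median log2 ratio of 0.13, against 820 and 4539 of 11053 with 20 UMIs (7.42% and 41.1%, median of 0.70). With 1 UMI in each region 930 of 16731 were lower (5.56%) and 8748 higher (52.3%), with a median of 1.10. The background shares thus depend on the minimum. In thinned spots the shares with a UMI were 57.1% and 7.31% for Lce1, 17.6% and 3.08% for Lce6a and 86.8% and 40.4% for Lce3, in the S1pr2 f/f section and the section labelled K14-Cre.

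No paired analysis was possible because the labels give no replicate numbers and each group has 1 section. Depth limits the section labelled K14-Cre most, where Lce6a rests on 19 UMIs and the Lce1 genes on 82. No alternative replaces a further animal.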

Other observations

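Some genes of keratinocyte differentiation and inflammation did not have the low values of the Lce genes in the section labelled K14-Cre. Tgm1, the transglutaminase that cross-links envelope proteins, was 981 CPM in the epidermis-like spots of the S1pr2 f/f section and 1093 CPM in those of the section labelled K14-Cre (log2 ratio of 0.16, 0.03 to 0.28). Slpi, a secreted protease inhibitor, was 546 and 884 CPM (0.69, 0.54 to 0.85), and Lcn2, an iron-binding antimicrobial protein, 130 and 312 CPM (1.26, 0.97 to 1.57). Krt14, the basal keratin whose promoter drives Cre, was 31804 and 19818 CPM (-0.68, -0.71 to -0.66) and Krt5 3689 and 4125 CPM (0.16, 0.10 to 0.23). In the clusters led by envelope genes the log2 ratios were 1.06 for Tgm1, 1.73 for Slpi, 0.29 for Lcn2, -0.19 for Krt14 and 0.30 for Krt5. These genes of the lists were named after their values were seen, apart from Krt14 and Krt5. Tgm1 is from the late envelope list, of which 13 of 15 genes were lower by 2-fold or more. Slpi and Lcn2 are from the hyperproliferation list, of which 10 of 14 were lower. The median log2 ratio of all genes was 0.70, and 0.11 in the clusters led by envelope genes.

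Of 16 transcription factors of keratinocyte differentiation and stress, 3 were lower by 2-fold or more in the section labelled K14-Cre (Cebpa, Prdm1 and Grhl1) and 1 was higher (Fosl1, on 11 and 19 UMIs), with a median log2 ratio of -0.35, beside 7.42% of all genes lower and 41.1% higher. The most abundant were Cebpb (log2 ratio of 0.29, 0.17 to 0.42), Klf4 (-0.53, -0.71 to -0.35), Zfp750 (-0.31, -0.51 to -0.12), Junb (0.20) and Ovol1 (-0.64, -0.85 to -0.43). Cebpa had a log2 ratio of -1.55 (-1.82 to -1.28), from 525 and 150 UMIs. In the clusters led by envelope genes Cebpa was at -2.03 and Prdm1 at -1.10, whereas Grhl1 was at -0.16, Klf4 at -0.02, Zfp750 at 0.06 and Ovol1 at 0.14, so Grhl1 was no longer past 2-fold and Zfp750 and Ovol1 changed direction. There 2 of the 16 were lower and 1 higher, beside 15.2% of all genes lower and 19.4% higher in those clusters.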
